A study of Bos taurus with 10 samples.

Results

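A group of 8 transcription regulators of lipid and mitochondrial metabolism was followed in the right ventricle of newborn calves: PPARA, PPARD, PPARG, PPARGC1A, ESRRA, RXRA, NRF1 and TFAM. Members were chosen by name, and a probe set counted as a member where its only symbol in the platform annotation was one of the 8. By this rule 6 genes had 12 of the 24016 tested probe sets, out of 9155 named genes in all. ESRRA and TFAM had no probe set with their symbol and were not analysed here. The tissue came from 10 male Holstein calves, 1 Affymetrix Bovine array per calf. The 5 control calves lived in ambient air at 1525 m, and the 5 hypoxia calves, titled PH calf, were held at a reduced pressure that matched 4570 m. Exposure lasted 14 days in both groups and started on postnatal day 3 to 7. Controls were thus at moderate altitude and not at sea level, and the tissue is whole muscle, in which fewer cells of a type and less RNA per cell cannot be told apart.

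PPARA, PPARD and PPARG are nuclear receptors that bind fatty acids and their derivatives. They act on DNA as pairs with a retinoid X receptor such as RXRA, and in heart muscle PPARA and PPARD drive genes of fatty acid uptake and oxidation, while PPARG is best known from fat cells. PPARGC1A, also called PGC-1alpha, is a coactivator that these receptors and the estrogen-related receptor ESRRA recruit. NRF1, nuclear respiratory factor, binds promoters of respiratory chain genes and of TFAM, the protein that packages mitochondrial DNA and helps start its transcription.

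Values are log2 expression after RMA, so a difference of 1 is a doubling. Differences are hypoxia minus control ± SE from limma with n = 5 calves per group, and a probe set passed at an adjusted p of 0.05 over all tested probe sets. Brightness depends on the probes, so the levels of different genes are not ranked. Array medians lay between 5.48 and 5.54. On the first principal component over all probe sets, calves 178 and 199 scored 34.4 and 46.1, the rest of the hypoxia group 9.79 to 13.9, and the controls -28.0 to -13.6, so these 2 calves stood apart. The measured cardiomyocyte markers were bright in every calf, with list means of 13.6 to 13.8, and the 9 measured adipocyte markers had means over all calves from 2.80 for LEP to 8.41 for LIPE. Their list mean was highest in control calf 195, at 5.99 against 4.82 to 5.33 in the other calves, and this calf read 9.58 for FABP4 and 5.75 for CIDEC. Of 6 control transcripts measured at both ends, the 3' minus 5' difference of actin was lower in every hypoxia calf than in any control (mean 1.97 against 3.47, exact two-sided permutation test, p = 0.00794, adjusted p = 0.0476). The other 5 had adjusted p from 0.302 to 0.714, and the part of this measure in the results was not tested. T lymphocyte markers had a lower list mean in hypoxia by 0.43 and atrial markers a higher one, 7.74 against 6.73 (both adjusted p = 0.0714 over 9 lists, exact permutation test). The list mean of the 10 fibroblast markers differed by 0.04, but single genes passed in both directions. PI16 rose by 1.71, while PDGFRA differed by -0.89 and MFAP4 by -0.82 (limma, adjusted p = 0.0238, 0.0213 and 0.0493). In the other lists no marker passed. The part of these markers in the results was not tested either.

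None of the 12 regulator probe sets passed, and the groups overlapped in each of them. Adjusted p (limma, Benjamini-Hochberg) ran from 0.111 for RXRA to 0.887 for a dim PPARD probe set. Over all tested probe sets 2.71% passed. At an unadjusted p under 0.05 there was 1 of the 12, RXRA, against 17.7% of all probe sets, and the same single probe set had an exact permutation p under 0.05. No overlap between the groups was seen in 0 of the 12, against 5.46% of all probe sets. Differences were higher in 6 and lower in 6. The most extreme bounds of the 95% intervals were -0.74 for RXRA and 0.78 for PPARG. No regulator interval thus held a doubling or a halving of the mean array signal. The only probe sets of PPARG and NRF1 were brighter than just 38.6% and 39.2% of probe sets. Another 3 regulator probe sets were dimmer than the 25th percentile. Whether differences were compressed at such dim levels was not tested.

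**Figure D1:**
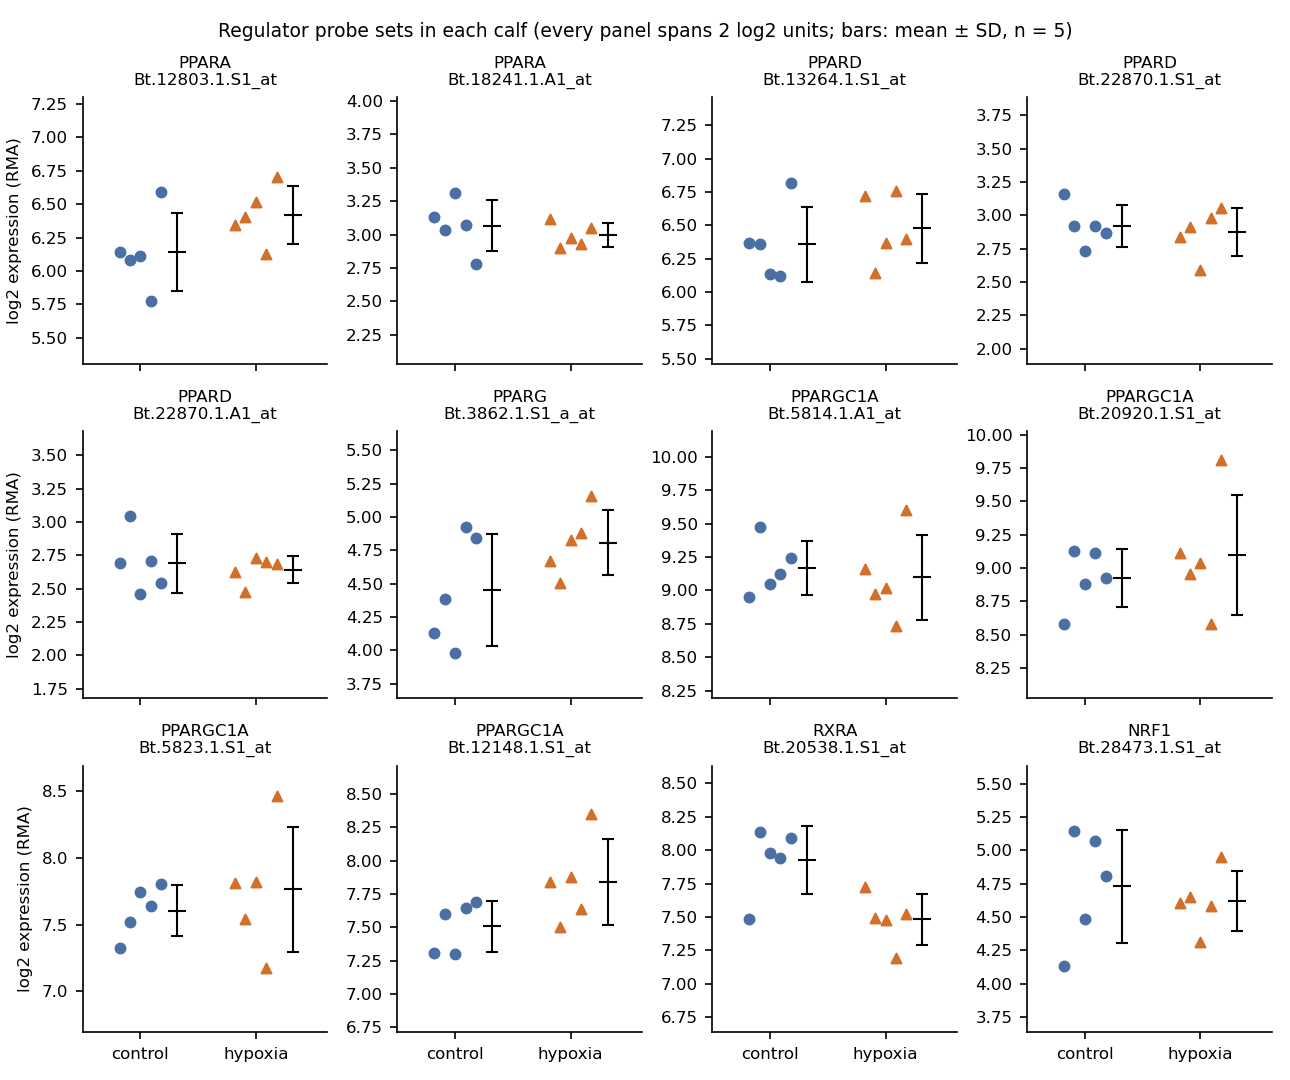
Log2 expression (RMA) of the 12 regulator probe sets, a panel each, with 1 point per calf (circles control, triangles hypoxia) and bars for the mean ± SD of 5 calves. Every panel spans the same number of log2 units, and the groups overlap in all 12.

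**Figure D2:**
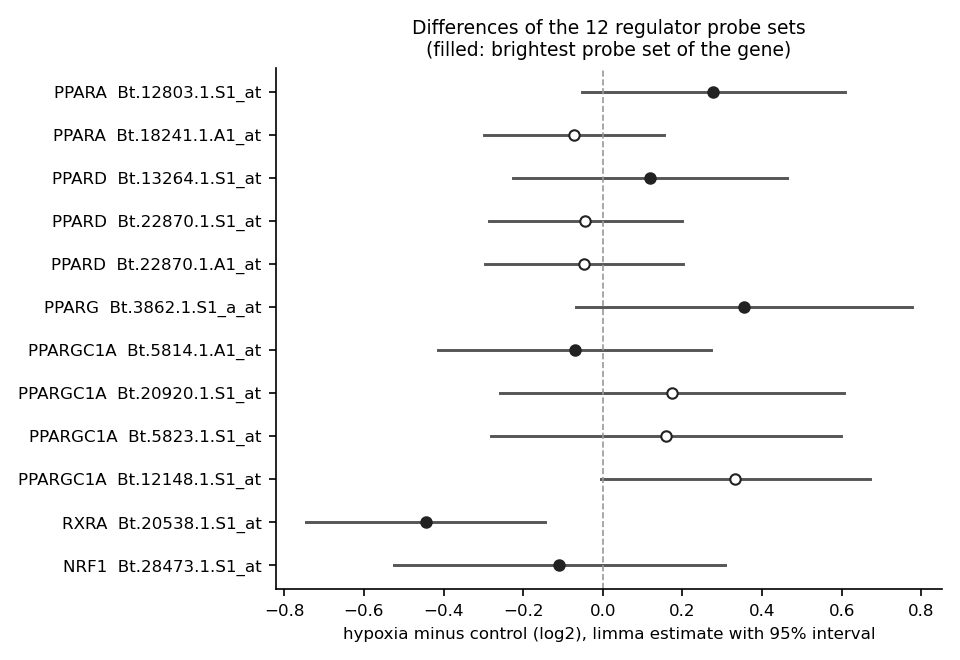
Hypoxia minus control on the log2 scale for the 12 regulator probe sets, with points for the limma estimate and lines for its 95% interval; filled points mark the brightest probe set of each gene. The interval of RXRA, from -0.74 to -0.15, is the only one that leaves out 0.

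RXRA, the retinoid partner of the PPARs, had the largest regulator difference in size. Its single probe set (Bt.20538.1.S1_at) read 7.49, 8.13, 7.98, 7.94 and 8.09 in control calves 176, 177, 180, 181 and 195. In hypoxia calves 173, 178, 192, 199 and 204 it read 7.73, 7.49, 7.48, 7.19 and 7.52. Every hypoxia calf lay below the control mean, and 4 of the 5 controls lay above every hypoxia calf, whereas control calf 176 sat among the hypoxia values. The control mean of 7.93 ± 0.26 (SD) compared with 7.48 ± 0.19 under hypoxia, a difference of -0.44 ± 0.14, or 0.735 times the control level. It did not pass (limma, adjusted p = 0.111; exact permutation p = 0.0317). Without control calf 176 the difference was -0.55 and passed (limma, adjusted p = 0.0391), and with any other calf left out it lay between -0.51 and -0.37 without passing (adjusted p = 0.0957 to 0.214). Without hypoxia calves 178 and 199 it was -0.35 (adjusted p = 0.383).

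The other retinoid X receptor genes had differences of the same sign. RXRB read 7.19, 7.26, 6.94, 7.19 and 7.28 in the controls, in the same order of calves, and 7.02, 6.91, 6.86, 6.77 and 6.72 in hypoxia. Control calf 180 was the only control inside the hypoxia range. Its difference was -0.32 ± 0.09 (limma, adjusted p = 0.101). RXRG, a subtype also found in muscle, read 7.22, 5.24, 6.46, 6.45 and 6.89 in controls and 6.24, 5.25, 5.24, 4.26 and 5.29 in hypoxia. Control calf 177 was the low control and hypoxia calf 199 the lowest of all. RXRG differed by -1.20 ± 0.39 on its brightest probe set (adjusted p = 0.127) and by -0.69 ± 0.19 on the other (adjusted p = 0.0822). The control that fell within the hypoxia range was a different calf for each of the 3 genes.

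THRA, the thyroid hormone receptor alpha and another partner of retinoid X receptors, was the only gene to pass among the 12 measured of 16 listed relatives of the regulators, and it fell. It read 11.42, 11.45, 11.41, 11.53 and 11.86 in the controls and 11.12, 10.56, 10.97, 10.475 and 10.82 in hypoxia. All hypoxia calves lay below all controls. The mean dropped from 11.53 ± 0.19 (SD) to 10.79 ± 0.27, a difference of -0.74 ± 0.14 and 1.67-fold lower (limma, adjusted p = 0.0209). The call for THRA was lost when control calf 181 was left out (limma, adjusted p = 0.0564). It was also lost without hypoxia calves 178 and 199 together (difference -0.56, adjusted p = 0.0961). THRA had a single probe set, whose name shares its leading number with the probe set of NR1D1 in this list. NR1D1, named for this reason, differed by 0.20 ± 0.16 (limma, adjusted p = 0.575). Whether either probe set also reads the other gene was not tested. NR1H3, the sterol receptor LXR alpha, differed by -0.27 ± 0.11 on its brighter probe set (adjusted p = 0.220) and by -0.03 ± 0.14 on the other (adjusted p = 0.941). In this list of related receptors and coactivators 1 of 12 genes passed, lower in hypoxia, and 0 passed higher, while 1.49% of named genes passed lower and 2.17% higher. The list's median difference was -0.26 against -0.01 over all named genes, and its differences ran from -1.81 to 0.20. The lowest belonged to the immediate early receptor NR4A1, named after its value was seen, whose calves spread widely and which did not pass (-1.81 ± 0.80; limma, adjusted p = 0.267).

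**Figure D3:**
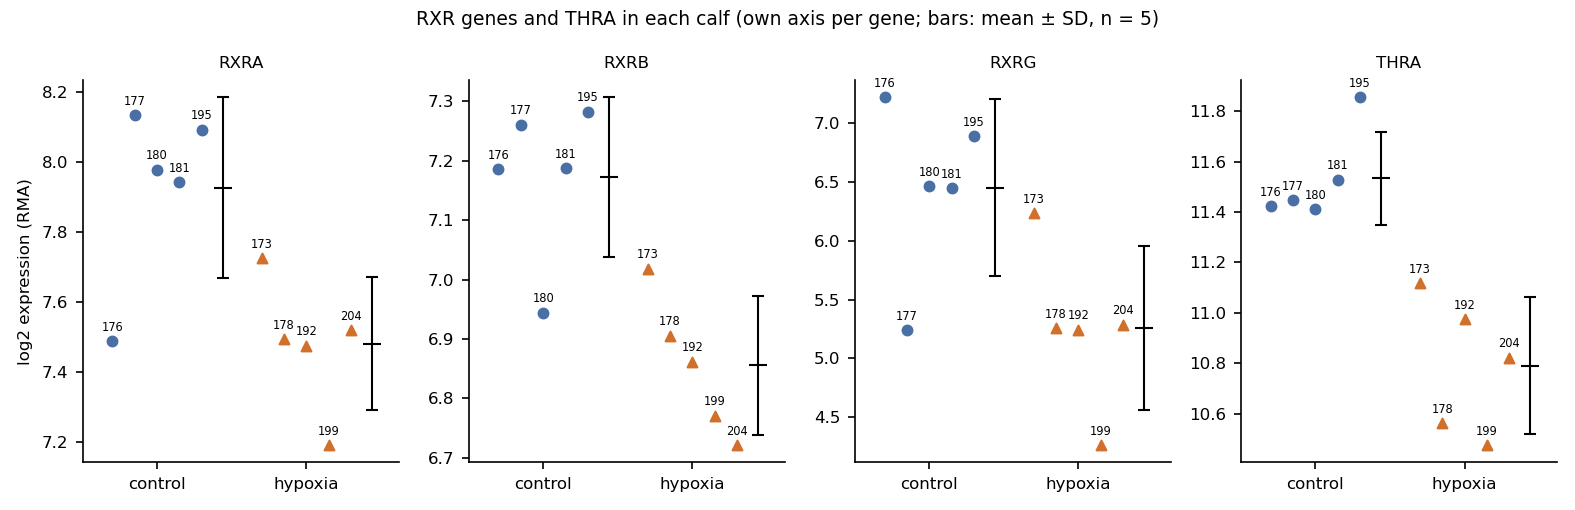
Log2 expression (RMA) of RXRA, RXRB, RXRG and THRA on their brightest probe sets, 1 labelled point per calf (circles control, triangles hypoxia), bars mean ± SD of 5 calves, with a separate axis for each gene. In each RXR gene a single control lies within the hypoxia range (calf 176, 180 or 177), and in THRA the groups are apart.

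PPARA, the fatty acid receptor of the heart, was measured by 2 probe sets that did not move together. The brighter one (Bt.12803.1.S1_at) read 6.14, 6.08, 6.11, 5.78 and 6.59 in control calves 176, 177, 180, 181 and 195 and 6.34, 6.402, 6.52, 6.13 and 6.71 in hypoxia calves 173, 178, 192, 199 and 204. Hypoxia calf 204 was highest and control calf 181 lowest, and control calf 195 exceeded 4 of the hypoxia calves. The difference was 0.28 ± 0.15, or 1.21 times the control level with a 95% interval of 0.965 to 1.52 times (limma, adjusted p = 0.377). The second probe set (Bt.18241.1.A1_at) had a mean of 3.07 in controls and 2.99 in hypoxia, brighter than only 14.9% of probe sets, and differed by -0.07 ± 0.10 (adjusted p = 0.788).

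PPARD, the widely expressed PPAR of muscle, did not pass on any of its 3 probe sets. The brightest (Bt.13264.1.S1_at) read 6.37, 6.36, 6.13, 6.12 and 6.82 in controls and 6.72, 6.14, 6.37, 6.76 and 6.39 in hypoxia. The ranges nearly coincided. The difference was 0.12 ± 0.16, with a 95% interval of 0.855 to 1.38 times the control level (limma, adjusted p = 0.765). The other probe sets (Bt.22870.1.S1_at and Bt.22870.1.A1_at), brighter than only 12.1% and 7.35% of probe sets, had differences of -0.04 ± 0.11 and -0.05 ± 0.11.

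PPARG, the PPAR of fat cells and also of macrophages and endothelium, had 1 probe set (Bt.3862.1.S1_a_at). It read 4.13, 4.39, 3.98, 4.92 and 4.84 in controls and 4.67, 4.51, 4.82, 4.88 and 5.16 in hypoxia. All 5 hypoxia calves lay above the control mean, but the controls spread more widely (SD 0.42 against 0.24) and 2 of them reached the hypoxia range. The difference was 0.35 ± 0.19, or 1.28 times the control level with an interval of 0.955 to 1.71 times (limma, adjusted p = 0.377). Beside it, the mean of the 9 measured of 10 adipocyte markers was 4.86 to 5.99 in controls and 4.82 to 5.12 in hypoxia, with 0 of 9 passing, the mean of 7 of 10 macrophage markers was 7.17 to 8.27 and 7.56 to 8.62, and that of 9 of 10 endothelial markers 7.07 to 7.38 and 7.19 to 7.55. Their part in the PPARG values was not tested.

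Whether PPARA and RXRA, or the PPARs among themselves, changed unequally was tested calf by calf on the brightest probe sets. PPARD and PPARG were not compared with RXRA. Of 6 planned pairs, 4 had both genes measured. The change of PPARA minus that of RXRA was 0.72 ± 0.18 (95% interval 0.30 to 1.14). For pairs, the SE and intervals came from the pooled variance of the per-calf values and not from limma. The per-calf value of PPARA minus RXRA went from a mean of -1.79 in controls to -1.06 in hypoxia. It did not pass (exact two-sided permutation test, p = 0.0159, adjusted p = 0.0635 over the 4 pairs). This pair passed only without control calf 176 (0.83, adjusted p = 0.0317). The intervals for the PPARs against each other were -0.29 to 0.61 for PPARA minus PPARD, -0.65 to 0.49 for PPARA minus PPARG and -0.77 to 0.30 for PPARD minus PPARG, with adjusted exact p from 0.593 to 0.754.

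PPARGC1A, the coactivator PGC-1alpha, did not pass on any of its 4 probe sets, which shared the same highest calf. The brightest (Bt.5814.1.A1_at) read 8.95, 9.48, 9.05, 9.13 and 9.24 in control calves 176, 177, 180, 181 and 195 and 9.16, 8.97, 9.02, 8.74 and 9.60 in hypoxia calves 173, 178, 192, 199 and 204. The difference was -0.07 ± 0.16 (95% interval -0.41 to 0.27; limma, adjusted p = 0.870). The next (Bt.20920.1.S1_at) read 8.58, 9.13, 8.88, 9.11 and 8.92 in controls and 9.12, 8.95, 9.04, 8.58 and 9.81 in hypoxia. Hypoxia calf 204 was the highest of all 10 calves on 4 of 4 probe sets, and hypoxia calf 199 the lowest of all on 3 of 4. Relative to the control mean of each probe set, averaged over the 4, calf 204 stood at 0.75 and calf 199 at -0.27, while the other hypoxia calves lay between -0.06 and 0.18 and the controls between -0.26 and 0.13.

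The probe sets of PPARGC1A gave different signs for the group difference, none of which passed. The last 3 in order of brightness differed by 0.17 ± 0.20, 0.16 ± 0.20 and 0.33 ± 0.15 (limma, adjusted p = 0.714, 0.750 and 0.292). The third (Bt.5823.1.S1_at) read 7.32 to 7.80 in controls and 7.18 to 8.46 in hypoxia. The dimmest (Bt.12148.1.S1_at) read 7.31, 7.598, 7.30, 7.65 and 7.69 in controls and 7.84, 7.50, 7.88, 7.64 and 8.35 in hypoxia, with an exact permutation p of 0.0714. On each of these last 2, hypoxia calves 173, 192 and 204 exceeded every control. The SD in hypoxia was larger than in controls on each probe set, 0.32 to 0.47 against 0.19 to 0.22. This difference in spread was not tested. Correlations between the probe sets over the 10 calves, which share the same arrays, ran from r = 0.59 to 0.90 and from 0.81 to 0.93 after the group means were removed.

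**Figure D4:**
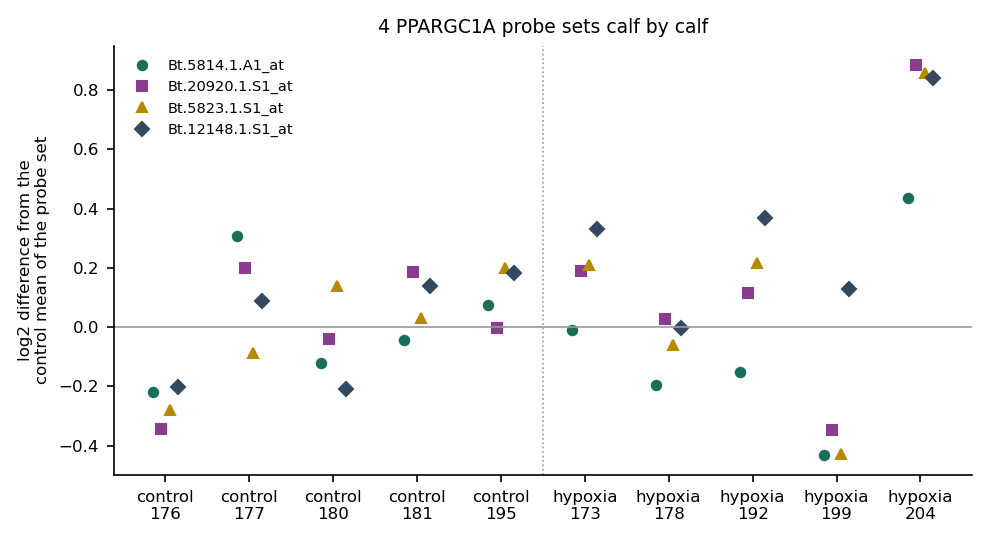
Log2 difference of each calf from the control mean of the probe set for the 4 PPARGC1A probe sets (a marker shape each), controls left of the dotted line and hypoxia calves right of it. Calf 204 is the highest on all 4 probe sets and calf 199 the lowest on 3.

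NRF1, the nuclear respiratory factor, had 1 probe set (Bt.28473.1.S1_at). It read 4.13, 5.14, 4.49, 5.07 and 4.81 in controls and 4.60, 4.65, 4.32, 4.58 and 4.95 in hypoxia. All hypoxia values lay within the control range. The difference was -0.11 ± 0.19, with an interval of 0.695 to 1.24 times the control level (limma, adjusted p = 0.827).

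None of the measured genes passed in the chosen lists of mitochondrial DNA upkeep and of respiration. Of the 16 measured among 22 listed genes of mitochondrial DNA transcription and replication, 0 passed (1.49% of named genes passed lower and 2.17% higher), with a median difference of -0.03. RNASEH1, which removes RNA from RNA-DNA hybrids, differed by -0.38 ± 0.13 on the brighter of 2 probe sets (limma, adjusted p = 0.137) and by -0.23 ± 0.13 on the other. MTERF3, a repressor of mitochondrial transcription, differed by 0.33 ± 0.14 on the brighter of 2 probe sets (adjusted p = 0.227) and by -0.004 on the other. TFB2M, which starts transcription together with TFAM, differed by -0.21 ± 0.11 on its brighter probe set and by -0.07 ± 0.18 on the other, and PNPT1, an RNA-processing exonuclease, by 0.20 ± 0.14. Among the 30 measured of 35 listed target genes of ERRalpha and NRF1 in respiration, 0 passed as well, with a median of -0.06 and a range of -0.30 to 0.26. The smallest p values belonged to NDUFA9 and NDUFV1 of complex I, with differences of -0.30 ± 0.13 and -0.26 ± 0.13, to COX7A1 of complex IV with -0.18 ± 0.08, and to the mitochondrial creatine kinase CKMT2 with 0.26 ± 0.12 (adjusted p = 0.262 to 0.319). The other CKMT2 probe set differed by 0.32 ± 0.12. The list mean of these targets was 12.53 for control calves and 12.48 for hypoxia calves. Whether differences were compressed at such bright levels was not tested.

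Several targets of the PPARs fell in hypoxia. None of the receptors passed, but RXRA differed by -0.44 with an interval that left out 0. The changes of targets and receptors were not compared by a test. Of the 30 measured among 36 listed target genes 7 fell and 0 rose, or 23.3% lower against 1.49% of named genes. The median difference was -0.48 against -0.01 over all named genes. The list was chosen with earlier results of these calves known, its count is a description, and 2 of its genes, FABP4 and CIDEC, are also adipocyte markers. The mean over the 30 targets read 9.13, 9.29, 9.53, 9.38 and 9.51 in control calves 176, 177, 180, 181 and 195 and 8.90, 8.72, 8.92, 8.61 and 9.07 in hypoxia calves 173, 178, 192, 199 and 204. Hypoxia calf 199 was the lowest of all, and hypoxia calf 204 the highest of its group, as on the brightest PPARGC1A probe set. The list mean of the cardiomyocyte markers had the same extremes, 13.59 in calf 199 and 13.83 in calf 204, the lowest and highest of all calves. A link between these patterns was not tested.

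The targets that fell encode enzymes, a carrier, a lipid droplet protein and uncoupling proteins. ACADL, a mitochondrial acyl-CoA dehydrogenase, read 7.84, 7.50, 7.42, 7.52 and 7.18 in controls and 6.64, 7.01, 7.08, 7.01 and 6.39 in hypoxia. The groups did not overlap. It fell by 0.67 ± 0.16 on its brighter probe set (limma, adjusted p = 0.0485), while the other differed by -0.40 ± 0.18 (adjusted p = 0.281). Among the 10 fits that left out a calf, it passed only without control calf 195 (adjusted p = 0.0415). PLIN2, the lipid droplet coat protein, read 8.53, 9.43, 9.91, 9.07 and 9.35 in controls and 7.38, 7.87, 7.14, 8.31 and 7.45 in hypoxia. Its groups were also apart, with a 3.09-fold lower mean (adjusted p = 0.0124).

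The remaining 5 that passed were the beta-oxidation subunit HADHA, the acylcarnitine carrier SLC25A20, the acyl-CoA thioesterase ACOT2 and the uncoupling proteins UCP2 and UCP3, with falls of 0.72 to 1.33. In those 10 fits ACOT2 passed only without hypoxia calf 173 or 204, and UCP3 only without control calf 177 or 180 or hypoxia calf 173, while HADHA, SLC25A20, PLIN2 and UCP2 passed in all 10. Without control calf 181, or without hypoxia calf 178, 192 or 199, 4 of the targets passed. Without hypoxia calves 178 and 199, 3 of the 7 passed (HADHA, SLC25A20 and PLIN2) and the list median was -0.33. In that fit 0.645% of all probe sets passed, against 2.71% with all calves. The other measured targets did not pass, and their values, on brightest probe sets, ran from -1.70 to 0.26. The droplet protein PLIN5 differed by -1.70 ± 0.45, the pyruvate dehydrogenase kinase PDK4 by -1.06 ± 0.49, the fatty acid transport protein SLC27A1 by -0.85 ± 0.25, the beta-oxidation subunit HADHB by -0.64 ± 0.17 and the malonyl-CoA decarboxylase MLYCD by -0.63 ± 0.21 (limma, adjusted p = 0.0664 to 0.283). The fatty acid transporter CD36 differed by -0.19 ± 0.18, the lipase LPL by -0.05 ± 0.15, the binding protein FABP3 by 0.04 ± 0.14, the dehydrogenase ACADM by 0.01 ± 0.13 and the carnitine palmitoyltransferase CPT1B by -0.38 ± 0.19 (limma, adjusted p = 0.347 to 0.974). These 10 were named after their values were seen.

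**Figure D5:**
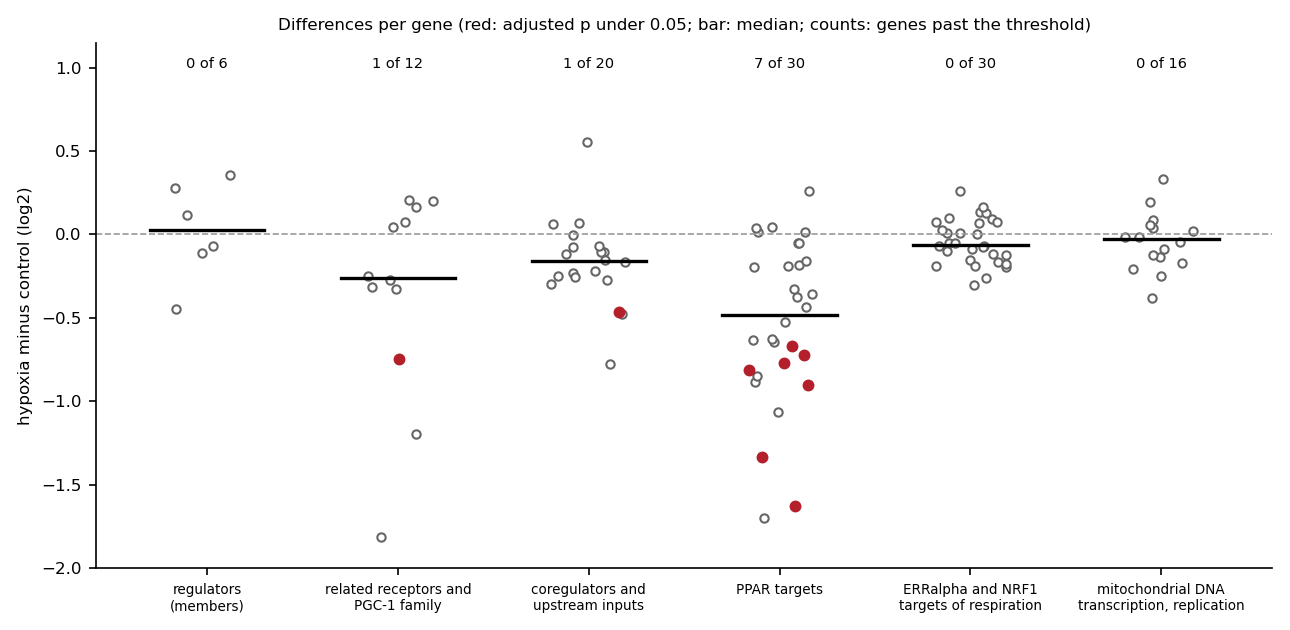
Hypoxia minus control (log2) for each gene on its brightest probe set, for the 6 measured regulators and 5 lists around them; red points passed an adjusted p of 0.05, bars are medians, and the counts above give genes that passed. PPAR targets reach down to -1.70 (PLIN5, which did not pass) with 7 of 30 passing, and 0 of 6 regulators passed.

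Among the 20 measured of 32 listed coregulators and upstream inputs 1 fell and 0 rose, while 1.49% of named genes passed lower and 2.17% higher. SIRT1, a deacetylase that acts on PGC-1alpha, read 8.21, 8.58, 8.66, 8.56 and 8.46 in controls and 8.09, 7.82, 8.13, 8.06 and 8.06 in hypoxia. All hypoxia calves lay below all controls. It fell by 0.46 ± 0.10 on the brighter of 2 probe sets (limma, adjusted p = 0.0394), but the other differed by -0.16 ± 0.12 (adjusted p = 0.550). The call held without control calf 176 and in none of the other 9 fits that left out a calf (adjusted p = 0.0587 to 0.0961).

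The catalytic subunits of the energy sensor AMPK had differences of opposite sign, neither of which passed. PRKAA1 differed by 0.55 ± 0.15 (limma, adjusted p = 0.0716), with every hypoxia calf above every control, at 5.08 to 5.63 against 4.47 to 5.03. PRKAA2, the muscle-enriched form, differed by -0.78 ± 0.28 (adjusted p = 0.160), with 4.33 to 4.85 in hypoxia and 4.504 to 6.30 in controls. CRTC2, a CREB coactivator, differed by -0.27 ± 0.09 (adjusted p = 0.134). The list median was -0.16 against -0.01 over all named genes. Of its 20 differences 17 were below 0 and 3 above, or 85% lower against 52.8% of named genes and 83.3% of the PPAR targets.

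For each regulator, the genes with the most similar pattern over the 10 calves were picked from 9154 other named genes by Pearson's r on brightest probe sets. All values come from the same arrays, and such a high r is the maximum of a very large number of comparisons. PPARA was most like FHOD3 and SPEG, which encode a sarcomere formin and a striated muscle kinase (r = 0.93 and 0.92, Spearman's rho 0.94 and 0.92). PPARD was most like PKM, pyruvate kinase, and TRIM8 (r = 0.88 and 0.87, rho 0.85 and 0.84). PPARG was nearest to RAB29 and MCL1 (r = 0.91 and 0.90, rho 0.76 and 0.81).

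PPARGC1A was nearest to INTS9 and LGALS4 (r = 0.94 and 0.93, rho 0.72 and 0.89), whose own differences were -0.04 and 0.01. RXRA was nearest to ZBTB4 and TNK2 (r = 0.95 and 0.95, rho 0.93 and 0.89), and TNK2, a cytoplasmic tyrosine kinase, fell by 0.67 (limma, adjusted p = 0.0371). NRF1 was nearest to SUPT6H, a transcription elongation factor, and RGP1 (r = 0.93 and 0.92, rho 0.96 and 0.94). After the group means were removed, r for these 12 pairs lay between 0.87 and 0.95.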

How the data were processed

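Biotin-labelled total RNA of each right ventricle was measured on an Affymetrix Bovine array, per the labels. The deposited values are log2 expression, 1 per probe set and calf, which the authors made with RMA, per the submitters' processing notes; its version and the probe set definitions are not given in the sources used here. This method equalises the arrays' distributions, and whether bright values were compressed was not tested. The 2 deposited tables were identical in all 24016 shared probe sets, and 112 control probe sets were not tested. Gene names came from the platform annotation (13292 probe sets with 1 symbol, 86 with several, 10638 with none).

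Calves were grouped by title. limma 3.58.1 in R 4.3.3 (lmFit, eBayes) tested hypoxia minus control on all probe sets with Benjamini-Hochberg adjustment. Single values and pairs used exact permutation tests, whose smallest p is 0.00794; of 6 planned pairs, the 2 with ESRRA or TFAM were not run. For genes with several probe sets the one with the highest mean stood for the gene. The fit was tested on simulated data. Figures used matplotlib 3.10.9 in Python 3.11.15.

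The members, lists and tests were chosen with earlier results of these data known. Named genes were all members, list genes that passed or had the smallest p until 4 were named, and the 2 genes most like each member. Alternatives covered array scaling, a filter at the 25th percentile of brightness, a variance trend, weights per array, a block for runs of calf numbers, threshold, probe set choice and calves left out. The runs were calves 173 to 181, with 4 controls and 2 hypoxia calves, and calves 192 to 204, with 1 control and 3 hypoxia calves. Group and run thus partly coincided. The number of arrays limits the precision, and the labels give no batch.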

Additional observations from a re-analysis of the deposited data

Results flagged for a closer look

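In 5 of 70 groups of 5 calves, among the regulators and the named list genes, a single calf stood apart from its group by Dixon's criterion; chance alone gives about 1 in 20. None of the regulators had such a calf. For THRA the value of 11.86 in control calf 195 exceeded the 11.41 to 11.53 of the remaining controls. For RXRB control calf 180 was low at 6.94, below 7.19 to 7.28. For SIRT1 hypoxia calf 178 was low at 7.82, below 8.06 to 8.13. For CRTC2 control calf 181 was low at 5.87, below 5.97 to 6.005. For UCP2 hypoxia calf 204 was high at 5.84, above 5.10 to 5.21.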

How the results depend on the processing

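Over the named genes and pairs, 520 values under an alternative kept their direction and side of the threshold, 49 lost a call, 2 gained one (RXRA and the pair PPARA and RXRA, both without control calf 176) and 7 changed sign. Probe sets that passed numbered 652, but 217 with runs of calf numbers as a block, 155 without hypoxia calves 178 and 199, 1436 at an adjusted p of 0.10 and 241 to 605 with 1 calf left out. Regulator probe sets that passed numbered 0 under every alternative except the fit without control calf 176 (range 0 to 1). PPAR targets that passed numbered 7, and 4 with the block, 3 without calves 178 and 199, 11 at 0.10 and 4 to 7 with 1 calf left out. The count for related receptors went from 1 to 0 without calves 178 and 199 and was 0 to 1 with 1 calf left out. That for coregulators went from 1 to 0 with the block, a variance trend, averaged probe sets per gene, or without calves 178 and 199, to 2 at 0.10, and was 0 to 1 with 1 calf left out. Regulator probe sets with an exact permutation p under 0.05 numbered 2 without calves 178 and 199 and 0 to 2 with 1 calf left out. Pairs that passed numbered 0 to 1. On PPARGC1A probe sets Bt.5823.1.S1_at and Bt.12148.1.S1_at, the 3 hypoxia calves other than 178 and 199 exceeded every control. The PPARGC1A difference changed sign without calves 178 and 199 (0.0912) and with the mean of its probe sets (0.15), and spanned -0.197 to 0.0197 with 1 calf left out. That of PPARA minus PPARG spanned -0.285 to 0.0333 in those fits. The cause of these changes was not tested. No paired analysis was possible because the groups share no calf number. With 5 arrays a group, the 95% intervals in the text limit what could be seen, and dim probe sets carry little information.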
